A study of Mus musculus with 2 samples.

Results

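Insulin and IGF signalling genes were followed through neurons of the mouse hypothalamus by 9 gene rows chosen by symbol, out of 32285 gene rows of the count matrix: the receptor genes Insr and Igf1r, the adaptor genes Irs1, Irs2 and Irs4, the PI3 kinase subunit genes Pik3r1 and Pik3ca, and the transcription factor genes Foxo1 and Foxo3. Each symbol matched 1 row. The nuclei came from the hypothalamus of wild type C57BL/6J males 10 to 12 weeks old, carried no transgene, were enriched for neurons by sorting on the nuclear protein NeuN, and were sequenced with 10x droplets as 1 pooled gene expression library. A second library counted hashtags, barcoded antibodies put on nuclei before pooling, of which the files name ARC and PVH. ARC is the arcuate nucleus, and PVH is used here as the name of the other hashtag. Hashtags did not tell mice apart, so the pool was 1 sample, no test across nuclei was made, and every interval below covers counting error only.

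Insulin and the insulin-like growth factors bind receptor tyrosine kinases, which phosphorylate insulin receptor substrate (IRS) proteins. These recruit PI3 kinase, a dimer of a regulatory and a catalytic subunit, whose lipid product activates AKT, and AKT keeps FOXO transcription factors out of the nucleus. In the arcuate nucleus, insulin acts on neurons that make agouti-related peptide (AGRP), which promote feeding, and on neurons that make pro-opiomelanocortin (POMC), which restrain it, and FOXO1 is known as a regulator of both neuropeptide genes.

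Filters left 10170 nuclei, of which 3767 carried the ARC hashtag and 3074 the PVH hashtag. Their median depth was 4827 and 5039 UMIs (unique molecular identifiers, each for 1 captured RNA molecule), and the 9 genes held 8240 and 6919 UMIs. Levels are counts per 1000000 UMIs of all genes (CPM) with exact 95% Poisson intervals. Sim1, a marker of neurons of the paraventricular region, was at 109 CPM in PVH and 10.6 CPM in ARC nuclei, while Lepr, the leptin receptor gene, was at 10.0 and 45.8 CPM. Agrp was at 152 CPM in PVH nuclei and 174 CPM in ARC nuclei, and an Agrp UMI was found in 44.8% of the 29 non-neuronal ARC nuclei, so UMIs of an abundant transcript reached nuclei that should lack it. No class that lacks the 9 genes was known here, so the part of free RNA in their levels was not tested.

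The ARC nuclei fell into 13 neuron clusters and 1 small non-neuronal cluster, numbered by size. Markers named 6 of the neuron clusters: AGRP-like (686 nuclei), POMC-like (282), KNDy-like (209, with Tac2 and Kiss1 among the markers sought), GHRH-like (204, which passed on Ghrh, Chat and Gal), VMH-like (197) and dopaminergic-like (182). The other 7, with 1978 nuclei, stayed unnamed. One of them, cluster 2, with 544 nuclei, passed Sim1 markers together with 6 oligodendrocyte and 4 oligodendrocyte precursor markers. The PVH nuclei fell into 15 neuron clusters, of which 7 were named Sim1-like (1106 nuclei) and 1 dopaminergic-like (196). Clusters were built from the genes of the same nuclei, and Igf1r, Pik3r1 and Foxo1 were among the variable genes used in ARC, so cluster levels are descriptions.

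The genes lie on 7 chromosomes of GRCm38 in the GENCODE M21 annotation. Insr spans chr8:3122061-3279617, Igf1r chr7:67952827-68233668, Irs1 chr1:82233101-82291416, Irs2 chr8:10984681-11008458, Irs4 chrX:141710998-141725263, Pik3r1 chr13:101680563-101768217, Pik3ca chr3:32397671-32468486, Foxo1 chr3:52268336-52353221 and Foxo3 chr10:42181841-42276755. Igf1r and Foxo3 overlap no other annotated gene. Irs1, Irs2, Irs4 and Insr overlap genes of the opposite strand, Pik3r1 and Pik3ca a gene of their own strand, and Foxo1 1 gene of each. Whether reads were counted by strand or within introns is not stated in the labels, the methods or the file headers.

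Promoter sequences of Igf1r and Foxo1 are shown because this receptor gene and this transcription factor gene lay on opposite sides in the AGRP-like cluster, the first low and the second high. Each is the 250 bases before the RefSeq start on the plus strand of GRCm38.p6, 5′ to 3′, with CG dinucleotides in capitals.
Igf1r, chr7:67952007-67952256: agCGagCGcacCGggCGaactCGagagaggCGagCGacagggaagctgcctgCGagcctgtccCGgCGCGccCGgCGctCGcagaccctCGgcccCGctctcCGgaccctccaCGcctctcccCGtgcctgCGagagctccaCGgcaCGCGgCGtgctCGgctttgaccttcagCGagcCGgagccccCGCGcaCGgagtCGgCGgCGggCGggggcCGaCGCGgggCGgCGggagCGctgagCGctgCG
Foxo1, chr3:52268087-52268336: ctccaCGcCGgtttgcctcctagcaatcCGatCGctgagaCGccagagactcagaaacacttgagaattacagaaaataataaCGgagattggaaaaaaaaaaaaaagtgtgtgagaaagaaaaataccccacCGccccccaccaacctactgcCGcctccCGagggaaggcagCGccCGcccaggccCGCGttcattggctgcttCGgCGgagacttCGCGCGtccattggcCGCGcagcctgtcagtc
The Igf1r window held 42 CG dinucleotides at a GC content of 77.6%, and the Foxo1 window 20 at 56.0%. RefSeq promoters were matched for 8 of the 9 genes, with 9 windows in all, which held between 6 and 42 CG dinucleotides against a median of 6 over 32851 promoter windows of the same length. TGTTTAC, the core FOXO motif, searched on both strands (reverse complement GTAAACA), was in 0 of the 9 windows and in 3.17% of all windows.

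Irs4 and Foxo1 were lower in PVH than in ARC nuclei, and the other 7 genes stayed within 1.5-fold. A gene counted as past the fold when its CPM ratio was 1.5 or more either way and at least 20 UMIs were to be had in the smaller group. By this rule 2 of 9 genes were past, both lower, beside 11.3% of the 16178 genes that qualified (5.82% higher and 5.44% lower). The median log2 ratio of the 9 genes was -0.02, and that of all qualifying genes -0.04.

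**Figure D1:**
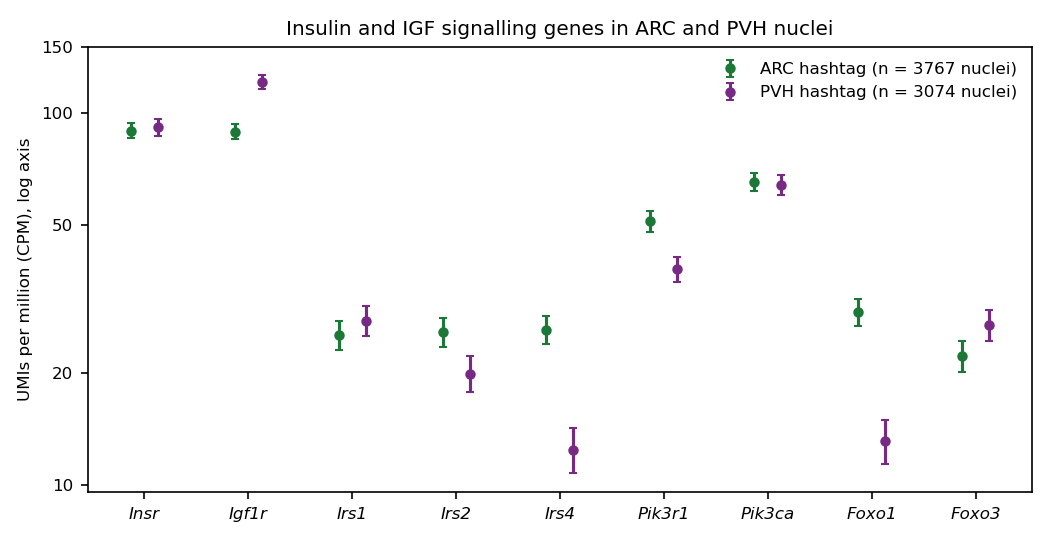
Levels of the 9 genes (CPM of summed UMIs, log axis) in nuclei with the ARC hashtag (green) and the PVH hashtag (purple), with exact 95% Poisson intervals as bars. Irs4 and Foxo1 show the widest gaps, with PVH lower, and Insr and Pik3ca lie at nearly the same height in both.

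The receptor genes did not move alike. Insr, which encodes the insulin receptor, was at 91.2 CPM in PVH nuclei (1526 UMIs) and 89.4 CPM in ARC nuclei (1743 UMIs), a log2 ratio of 0.03 (interval -0.07 to 0.13). Igf1r, which encodes the receptor for IGF-1, was at 121 and 88.9 CPM, a log2 ratio of 0.44 (0.35 to 0.53). Its levels in the 2 hashtags differed beyond counting error but by less than 1.5-fold. Without the AGRP-like cluster, where Igf1r was low, the ARC level was 103 CPM and the log2 ratio 0.22 (0.13 to 0.32).

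Among the adaptors, Irs4, a member of the IRS family known for its expression in the hypothalamus, was at 12.4 CPM in PVH (208 UMIs) and 26.1 CPM in ARC nuclei (509 UMIs), a log2 ratio of -1.07 (-1.31 to -0.84). Irs2, a main substrate for insulin signals in brain, was at 19.9 and 25.7 CPM, with a log2 ratio of -0.37 (-0.57 to -0.17). Irs1, the founding member of the family, was at 27.6 and 25.3 CPM, with a ratio whose interval spans 0 (log2 0.13, -0.06 to 0.31). Of the PI3 kinase genes, Pik3r1, which encodes the regulatory p85 alpha subunit, was at 37.9 and 51.0 CPM (log2 -0.43, -0.57 to -0.28). Pik3ca, which encodes the catalytic p110 alpha subunit, was at 63.9 and 64.9 CPM (log2 -0.02, -0.14 to 0.09).

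Foxo1, a FOXO factor that insulin signals restrain, was at 13.1 CPM in PVH (219 UMIs) and 29.1 CPM in ARC nuclei (567 UMIs), a log2 ratio of -1.15 (-1.38 to -0.92). Foxo3, its paralog, leaned the other way, at 26.8 and 22.2 CPM (log2 0.27, 0.08 to 0.47). The ARC clusters with the highest Foxo1 were also left out, on the ARC side alone and after their levels were seen, so the values that follow are descriptions. Without the AGRP-like cluster the ARC level of Foxo1 was 22.8 CPM and the log2 ratio -0.80, and without the AGRP-like and GHRH-like clusters it was 16.2 CPM and -0.31 (-0.58 to -0.04), within the fold. Irs4 stayed past the fold in both cases, at log2 ratios of -0.67 and -0.73. Pik3r1 went past it without the AGRP-like cluster, at 37.9 against 59.5 CPM (log2 -0.65, -0.80 to -0.50), and was at -0.46 without both clusters.

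Clustering the nuclei of both hashtags together gave 4 clusters with at least 50 nuclei of each, holding 1087 PVH and 888 ARC nuclei. Within these, weighted over clusters, the log2 ratio of PVH to ARC was -0.73 for Irs4, -0.79 for Pik3r1, -0.49 for Foxo1, -0.44 for Irs2 and 0.01 for Igf1r. These weighted ratios were given no interval. Pik3r1, Irs2 and Foxo1 were lower in PVH nuclei in 4 of 4 of these clusters, and Irs4 in all but 1. For Irs2 and Foxo1, however, the interval in every cluster ran from lower to higher. The interval of Irs4 did so in all but 1 cluster, while that of Pik3r1 lay wholly on the lower side in all but 1. Tissue, dissection and hashtag cannot be told apart in this design.

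Across the 13 ARC neuron clusters, Insr was nearly level while Foxo1, Pik3r1, Igf1r and Irs4 varied widely. Insr ranged from 74.9 CPM in the GHRH-like cluster to 101 CPM in cluster 13, with a median of 92.4 CPM, and the ratio of highest to lowest was 1.35 (0.97 to 1.89). Pik3ca ranged from 48.0 to 74.0 CPM, a ratio of 1.54 (1.08 to 2.22). For Foxo1 the ratio was 14.2 (7.98 to 27.4), for Pik3r1 10.3 (7.60 to 14.2), for Igf1r 7.33 (5.63 to 9.57) and for Irs4 7.25 (3.06 to 22.6). Irs1, Irs2 and Foxo3 lay between, at 3.97, 2.35 and 2.33. Over the 6661 genes with enough UMIs in every cluster the median ratio was 1.75, and 16.2% of them reached 3-fold. Of the 9 genes only Insr, Igf1r, Pik3r1 and Pik3ca had enough UMIs in every cluster, and since a ratio of highest to lowest grows with counting error, the other 5 are not read against these shares. Neighbours in the order of the 13 levels differed beyond their intervals in 3 of 12 pairs for Igf1r and for Pik3r1, 2 for Foxo1, 1 for Irs4 and 0 for each of the other 5 genes.

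**Figure D2:**
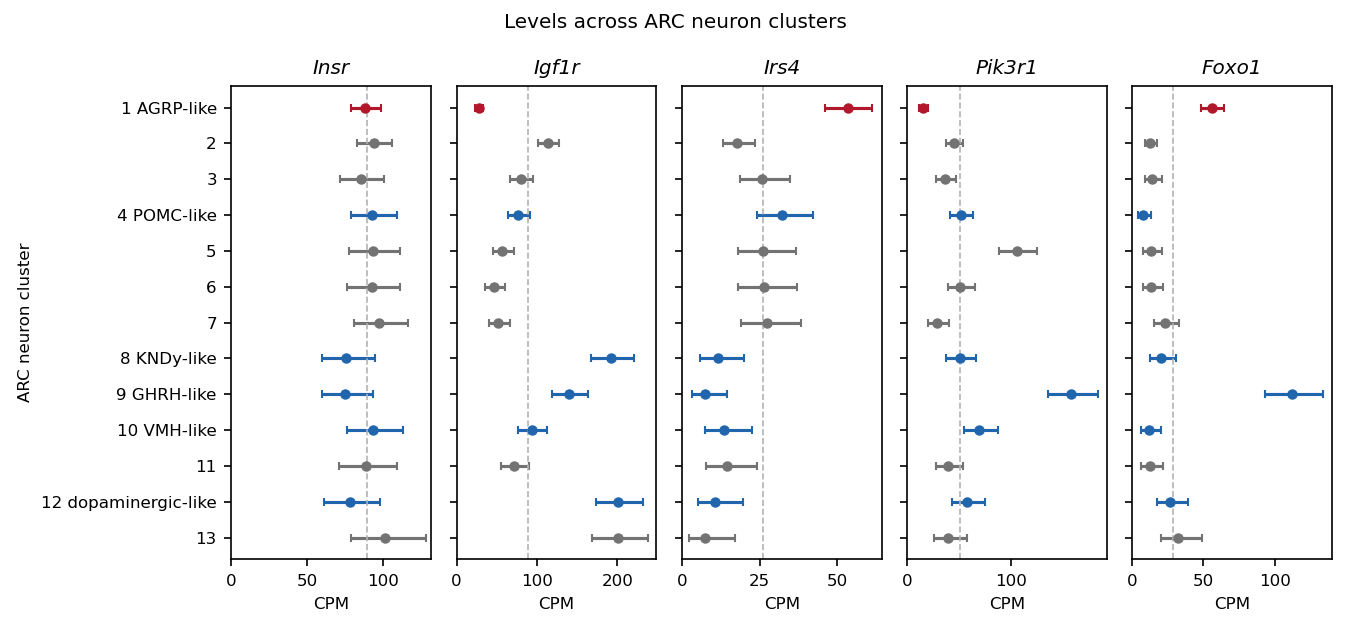
CPM of Insr, Igf1r, Irs4, Pik3r1 and Foxo1 (one panel each) in the 13 ARC neuron clusters, with exact 95% Poisson intervals; the AGRP-like cluster is red, other named clusters blue and unnamed ones grey, and the dashed line is the level over all ARC neurons. Insr stays near the line in every cluster, Igf1r and Pik3r1 are lowest and Irs4 highest in the AGRP-like cluster, and Pik3r1 and Foxo1 are highest in the GHRH-like cluster.

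AGRP-like neurons held low Igf1r and Pik3r1 and high Irs4 and Foxo1, with Insr at the level of the other neurons. Against all other ARC neurons 5 of 9 genes were past the fold, 2 higher and 3 lower, beside 13.2% of 12322 qualifying genes (4.74% higher and 8.51% lower). Insr stood at 88.3 CPM there and 89.5 CPM elsewhere (log2 -0.02, -0.20 to 0.15). Igf1r was at 27.4 CPM (102 UMIs) against 103 CPM, a log2 ratio of -1.91 (-2.21 to -1.62). Its level in this cluster was the lowest of the 13 and was apart from the next, cluster 6 at 46.2 CPM, by a ratio of 1.68, whose interval lay above 1. Of these nuclei 12.1% had an Igf1r UMI and 35.9% an Insr UMI, and after thinning each nucleus to 1000 UMIs the shares were 2.62% and 8.45%. Low Igf1r was not particular to this cluster. It was also past the fold and lower in clusters 5, 6 and 7, at log2 ratios of -0.67, -0.99 and -0.82.

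Downstream of the receptors, Irs4 was at 53.3 CPM in AGRP-like neurons (198 UMIs) and 19.8 CPM in the others, a log2 ratio of 1.43 (1.17 to 1.69). This was the highest Irs4 level of the 13, apart from the POMC-like cluster next to it at 32.2 CPM. Irs1 was at 16.4 against 27.4 CPM (log2 -0.74, -1.15 to -0.35), and Irs2 at 30.1 against 24.7 CPM (0.29, -0.03 to 0.60). Pik3r1 was at 15.3 CPM (57 UMIs) against 59.2 CPM, a log2 ratio of -1.95 (-2.36 to -1.56), again the lowest of the 13 and apart from the next. The catalytic subunit gene Pik3ca did not share this, at 69.4 and 63.9 CPM. Pik3r1 was also past the fold and lower in cluster 7, at a log2 ratio of -0.85. Foxo1 was at 56.0 CPM (208 UMIs) against 22.2 CPM, a log2 ratio of 1.34 (1.08 to 1.59), and Foxo3 at 27.4 against 20.9 CPM (0.39, 0.06 to 0.72). With the 9 genes and the other pathway genes kept out of the clustering, the AGRP-like cluster held 745 nuclei and the log2 ratios were -1.75 for Igf1r, -1.92 for Pik3r1 and 1.18 for Foxo1.

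**Figure D3:**
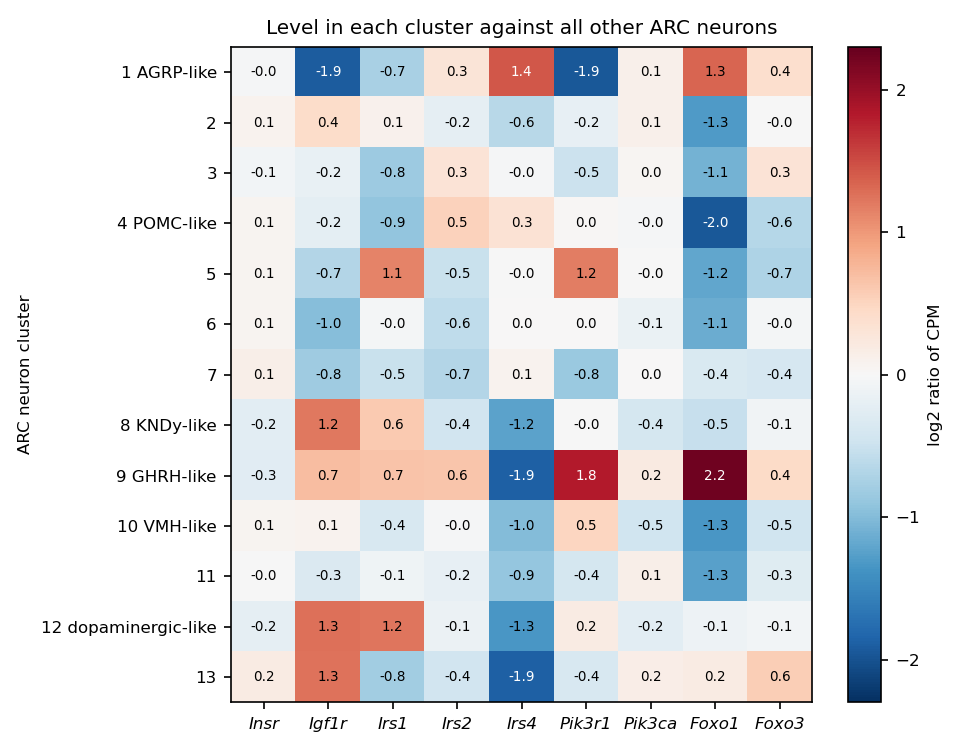
Log2 ratio of CPM in each of the 13 ARC neuron clusters against all other ARC neurons, for the 9 genes (blue lower, red higher, values printed). The columns of Insr and Pik3ca are pale throughout, and the AGRP-like and GHRH-like rows are alike in Foxo1 and opposite in Igf1r, Irs4 and Pik3r1.

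POMC-like neurons differed from AGRP-like neurons most in Foxo1. Against all other ARC neurons 3 of 9 genes were past the fold, all lower, beside 11.4% of 10000 qualifying genes (7.74% lower). Foxo1 was at 7.90 CPM (13 UMIs) against 30.6 CPM, a log2 ratio of -1.95 (-2.87 to -1.17), and was the lowest of the 13 clusters, though not apart from its neighbour. The other neurons include the AGRP-like and GHRH-like clusters, at 56.0 and 112 CPM, and the median of the 13 levels was 14.1 CPM. Foxo1 was also past the fold and lower in the VMH-like cluster and in clusters 2, 3, 5, 6 and 11, so low Foxo1 was not particular to POMC-like neurons. Irs1 was at 14.0 against 26.3 CPM (log2 -0.91, -1.59 to -0.31) and Foxo3 at 14.6 against 22.9 CPM (-0.65, -1.31 to -0.05). Insr was at 93.0 and Irs2 at 35.9 CPM, neither past the fold.

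Set directly against POMC-like neurons, AGRP-like neurons were higher in Foxo1 (log2 2.82, 2.02 to 3.76), Foxo3 (0.91, 0.26 to 1.62) and Irs4 (0.73, 0.28 to 1.19). They were lower in Igf1r, at 27.4 against 76.6 CPM (-1.48, -1.87 to -1.09), and in Pik3r1, at 15.3 against 51.6 CPM (-1.75, -2.26 to -1.25). These 5 of 9 stood beside 15.4% of 9915 genes, and for Insr the log2 ratio was -0.07 (-0.36 to 0.21).

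GHRH-like neurons had the highest Foxo1 and Pik3r1 of the 13 clusters. The cluster was named on Ghrh, the gene for growth hormone-releasing hormone, with Chat and Gal, while Gsx1, Slc18a3 and Slc5a7 were also sought and did not pass. Against the other ARC neurons 6 of 9 genes were past the fold, 5 higher and 1 lower, beside 13.9% of 8525 genes (4.77% higher and 9.08% lower). Foxo1 was at 112 CPM (121 UMIs) against 23.7 CPM, a log2 ratio of 2.24 (1.93 to 2.53), and this level was apart from the AGRP-like cluster, next in order, by a ratio of 2.00 (1.58 to 2.51). Pik3r1 was at 158 CPM (171 UMIs) against 44.5 CPM, a log2 ratio of 1.83 (1.58 to 2.07). Igf1r was at 140 against 85.6 CPM (0.71, 0.45 to 0.95), Irs1 at 38.8 against 24.5 CPM (0.66, 0.17 to 1.12) and Irs2 at 38.8 against 24.9 CPM (0.64, 0.15 to 1.10). Irs4 was the exception, at 7.40 CPM on 8 UMIs against 27.3 CPM (-1.88, -3.10 to -0.89). Insr was at 74.9 against 90.1 CPM, with an interval that spans 0. The other neurons include the AGRP-like cluster, at 27.4 CPM of Igf1r, 16.4 CPM of Irs1 and 15.3 CPM of Pik3r1. The medians of the 13 levels were 79.9, 23.7 and 50.8 CPM. Ratios without the AGRP-like cluster were not computed, so the calls of Igf1r and Irs1, near the fold, depend on this comparison group.

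Igf1r was highest in the dopaminergic-like cluster, in cluster 13 and in the KNDy-like cluster. KNDy neurons make kisspeptin, neurokinin B and dynorphin and drive the release of gonadotropins. Its levels there were 201, 201 and 193 CPM, and these neighbours did not differ beyond their intervals. In the KNDy-like cluster the log2 ratio to the other neurons was 1.22 (1.00 to 1.43), Irs1 was at 37.4 against 24.6 CPM (0.60, 0.09 to 1.08), and Irs4 at 11.5 against 27.0 CPM (-1.23, -2.19 to -0.41). These were 3 of 9 genes beside 16.0% of 8386. Here too the other neurons include the AGRP-like cluster, at 27.4 CPM of Igf1r and 16.4 CPM of Irs1. With a hashtag quantile of 0.99 the log2 ratio of Irs1 in KNDy-like neurons was 0.08, within the fold, and it was also within it, at 0.57 and 0.56, with both hashtags clustered together and as a mean of the CPM of each nucleus.

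In the dopaminergic-like cluster Igf1r was at a log2 ratio of 1.27 (1.05 to 1.49). Irs1 was at 55.5 against 23.8 CPM (1.22, 0.78 to 1.64), its highest level, and Irs4 at 10.7 against 27.0 CPM (-1.34, -2.41 to -0.45), so that 3 of 9 genes were past beside 14.8% of 7950. VMH-like neurons were past in 2 of 9, both lower, beside 16.0% of 8597 genes (11.1% lower): Irs4 at 13.6 against 26.9 CPM (-0.99, -1.84 to -0.25) and Foxo1 at 11.8 against 29.7 CPM (-1.33, -2.25 to -0.55). Irs4 was past the fold and lower in the GHRH-like, KNDy-like, dopaminergic-like and VMH-like clusters and in clusters 2 and 11. Each was set against neurons that include the AGRP-like cluster at 53.3 CPM, and the median Irs4 level of the 13 clusters was 17.7 CPM. Cluster 13 had the lowest Irs4 level, at 7.35 CPM (log2 -1.87), but too few UMIs were to be had there for a call. Of the unnamed clusters, cluster 5 (278 nuclei) had 105 CPM of Pik3r1 against 46.9 CPM and 51.6 CPM of Irs1 against 23.4 CPM, and 5 of 9 genes were past beside 12.1% of 9208. Of the 5, these 2 were higher, and Igf1r (57.0 against 90.9 CPM), Foxo1 (13.1 against 29.8 CPM) and Foxo3 (13.9 against 22.8 CPM) were lower. The clusters with more Slc17a6 than Slc32a1 (glutamatergic, 1483 nuclei) were past the fold against the GABAergic ones (2255 nuclei) in Foxo1 alone, at 14.2 against 38.5 CPM (-1.44, -1.75 to -1.14), 1 of 9 genes beside 9.21% of all qualifying ones (4.24% lower). The GABAergic group contains the AGRP-like and GHRH-like clusters, at 56.0 and 112 CPM of Foxo1. Its clusters 12 and 13 were at 26.7 and 32.3 CPM, and its clusters 3, 5, 6 and 11 between 12.3 and 14.1 CPM. The glutamatergic clusters ranged from 7.90 to 22.8 CPM, so the 2 groups overlapped. The largest of them was cluster 2 (544 nuclei), with 48.0 CPM of Slc17a6, 39.0 CPM of Slc32a1 and the oligodendrocyte markers given above.

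In PVH nuclei the spread over clusters was smaller for Igf1r, which ranged from 80.0 to 189 CPM over 15 clusters with a median of 112 CPM, a ratio of 2.36 (1.69 to 3.34). Pik3r1 ranged from 16.6 CPM in cluster 14 (9 UMIs) to 81.4 CPM in cluster 8, a ratio of 4.90 (2.47 to 11.1). Foxo1 ranged from 1.85 CPM on 1 UMI to 31.1 CPM in cluster 10, and no PVH cluster reached the level of the AGRP-like or GHRH-like neurons. Insr was lowest in cluster 15, at 49.2 CPM on 18 UMIs, and its other 14 clusters lay between 72.8 and 103 CPM. Over the 4077 genes with enough UMIs in every PVH cluster the median ratio of highest to lowest was 1.83, and 19.8% reached 3-fold. Pik3r1 and Foxo1 did not have enough UMIs in every PVH cluster and are not read against these shares.

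**Figure D4:**
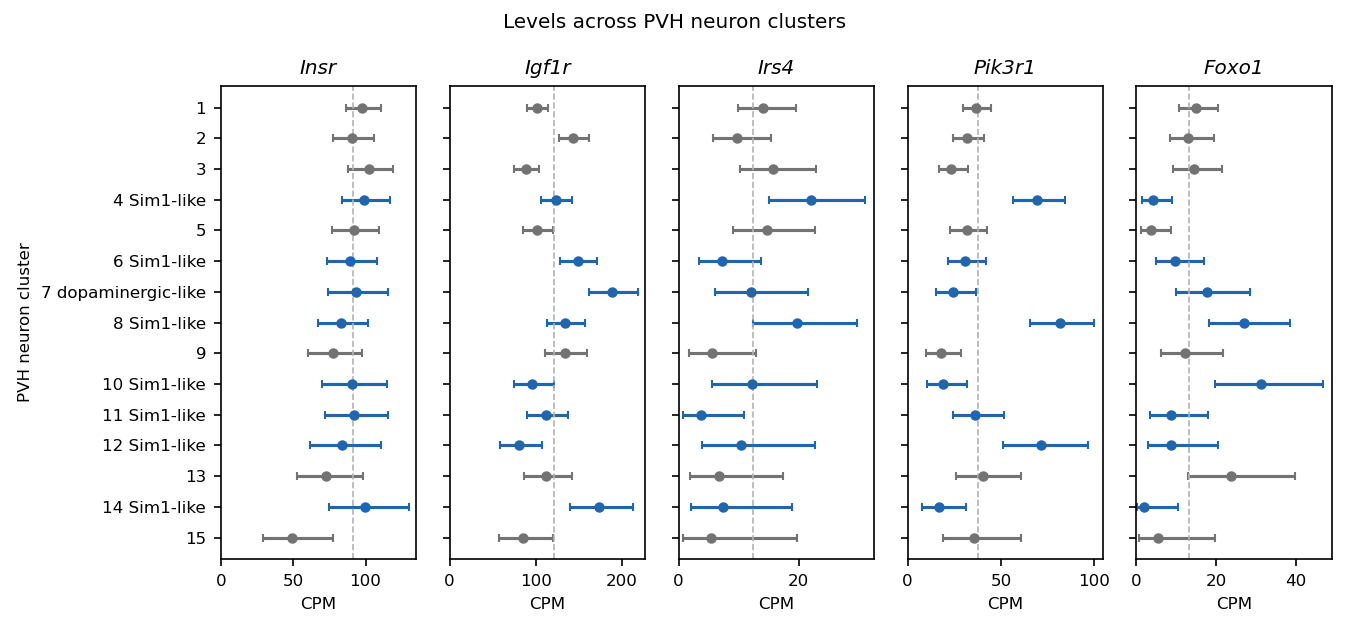
CPM of Insr, Igf1r, Irs4, Pik3r1 and Foxo1 in the 15 PVH neuron clusters, with exact 95% Poisson intervals, named clusters in blue, unnamed ones in grey and the level over all PVH neurons dashed. Pik3r1 is highest in the Sim1-like clusters 4, 8 and 12, and Igf1r in the dopaminergic-like cluster.

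The 7 Sim1-like clusters together were past the fold against other PVH neurons in Pik3r1 alone, at 49.9 against 30.4 CPM (log2 0.71, 0.49 to 0.94), 1 of 9 genes beside 12.6% of 13780 (5.40% higher). Among them Pik3r1 was at 69.5, 81.4 and 71.3 CPM in clusters 4, 8 and 12, and between 16.6 and 36.0 CPM in the other 4, so the Sim1-like clusters did not share 1 level. Dopaminergic-like PVH neurons had Igf1r at 189 against 117 CPM (0.69, 0.46 to 0.92) and Pik3r1 at 24.1 against 38.7 CPM (-0.68, -1.37 to -0.07), 2 of the 6 genes that qualified, beside 9.58% of 7758. The PVH cluster was named on Slc6a3, Slc18a2 and Lhx1, and passed neither Th nor Ddc. Its Pik3r1 level was not the lowest. PVH clusters 3, 9, 10 and 14 were lower still, at 23.5, 17.7, 18.9 and 16.6 CPM. Its Igf1r level was not apart from that of cluster 14, next in order, with a ratio of 1.09 (0.84 to 1.41). Set side by side, dopaminergic-like neurons of the PVH and ARC hashtags had 189 and 201 CPM of Igf1r (-0.09, -0.40 to 0.22). Irs1 was at 28.5 and 55.5 CPM (-0.96, -1.70 to -0.26), Pik3r1 at 24.1 and 57.6 CPM (-1.26, -2.04 to -0.52), and Foxo1 at 17.5 and 26.7 CPM (-0.60, -1.61 to 0.36), the last with an interval that spans 0. They were 3 of the 8 genes that qualified, beside 16.0% of 7709. In the joint cluster named dopaminergic-like, with 185 PVH and 320 ARC nuclei, the log2 ratio was -0.04 (-0.32 to 0.24) for Igf1r and -0.45 (-1.19 to 0.25) for Irs1, both within the fold, while the interval for Pik3r1 ran from -1.77 to -0.29.

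The 29 non-neuronal ARC nuclei, with a median of 2562 UMIs, held 128 CPM of Insr, 151 of Igf1r, 128 of Foxo1 (64 to 229, 11 UMIs) and 105 of Pik3r1, and 1 UMI of Irs4. Their intervals are wide, and leaving these nuclei out did not take Irs4 or Foxo1 within the fold between the hashtags.

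Most nuclei held UMIs of few of the 9 genes. The median ARC neuron held UMIs of 2 of the 9 genes, with a range of 0 to 8, and 15.3% held none. A UMI of either receptor gene was found in 55.6% of ARC and 63.3% of PVH neurons, and UMIs of both in 11.5% and 17.2%. In AGRP-like neurons the shares were 43.6% and 4.37%, and in GHRH-like neurons 63.2% and 16.7%. After thinning to 1000 UMIs a receptor UMI was left in 16.5% of ARC and 18.5% of PVH neurons (1 PVH nucleus was too shallow and left out).

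Beyond the 9 genes, 75 other genes of the pathway were read from a list of ligands, binding proteins, receptors, adaptors, kinase subunits, phosphatases, AKT and mTOR arms, FOXO factors and feedback genes. Between the hashtags 9 of the 61 that qualified were past the fold, 2 higher and 7 lower in PVH nuclei, beside the 11.3% of all qualifying genes given above (5.82% higher and 5.44% lower). Igf1, the gene for the ligand IGF-1, was at 4.06 against 1.80 CPM (68 and 35 UMIs, log2 1.18, 0.57 to 1.81), and Igfbpl1, which encodes an IGF binding protein-like protein, at 7.53 against 1.59 CPM. Lower were the docking adaptor genes Gab1 (9.62 against 26.3 CPM, log2 -1.45) and Gab2 (112 against 239 CPM, -1.09). So were the AKT substrate gene Tbc1d4 (34.2 against 52.6 CPM), the kinase gene Sgk3 (7.47 against 12.3 CPM), the feedback genes Socs2 (27.7 against 52.9 CPM) and Socs3 (1.85 against 4.51 CPM) and the pseudokinase gene Trib1 (10 against 37 UMIs). None of the 11 mTOR arm genes or 6 PI3 kinase subunit genes that qualified was past. The median log2 ratio over the list was -0.09.

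In AGRP-like neurons 9 of 54 genes of the list were past, 5 higher and 4 lower, beside 13.2% of all qualifying genes (4.74% higher and 8.51% lower). Inpp4b, which encodes a phosphatase of PI3 kinase lipid products, was at 795 against 247 CPM (2953 UMIs in the cluster, log2 1.69, 1.62 to 1.75). Gab1 was at 45.5 against 20.7 CPM (1.13), Dok5, an adaptor gene, at 41.7 against 24.3 CPM (0.78), Socs2 at 99.8 CPM (1.25) and Socs1, which encodes a suppressor of cytokine signalling, at 11.8 against 6.05 CPM (0.97). Lower were the adaptor gene Shc3 (34.2 against 81.1 CPM, -1.25), the regulatory PI3 kinase subunit gene Pik3r3 (38.5 against 59.8 CPM, -0.64), Sgk3 (7.53 against 13.3 CPM) and the pseudokinase gene Trib2 (12.1 against 18.8 CPM). Pik3r3 and Pik3r1 thus lay on the same side, while the AKT genes stayed within the fold.

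In POMC-like neurons 8 of 48 genes were past, 4 in each direction, beside 11.4% of all qualifying genes (3.66% higher and 7.74% lower). Gab2 was at 501 against 215 CPM (log2 1.22, 1.11 to 1.33), Dok5 at 41.9 against 26.3 CPM and Socs2 at 93.0 against 49.4 CPM. Inpp4b, high in AGRP-like neurons, was at 207 against 365 CPM (-0.82, -0.98 to -0.67), and Gab1 at 14.6 against 26.5 CPM (-0.86). Pik3c2b, a class II PI3 kinase gene, was at 17.6 against 33.0 CPM, and Trib2 at 10.3 against 18.2 CPM.

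Over the 13 ARC neuron clusters, on a log2(CPM + 1) scale, the level of Igf1r ran against that of Irs4 (Pearson r = -0.88), and Foxo1 ran with Foxo3 (r = 0.70). Among 7227 genes with at least 500 UMIs the patterns most like Igf1r were those of Nnat (0.92), Rab30 (0.85) and Sphkap (0.84). Most like Irs4 were Snw1 (0.91), Kndc1 (0.90) and Irak2 (0.90), most like Pik3r1 were Chn2 (0.83), Rimklb (0.79) and Sobp (0.79), and most like Foxo1 were Fam57a (0.87), Spats1 (0.83) and Nfxl1 (0.81). For Irs2, Adam12 (0.85), Prox1 (0.85) and Ghr, the growth hormone receptor gene (0.83), came first. These are descriptions over 13 points that share 1 library.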

How the data were processed

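Deposited were whole-number UMI counts, not normalized by the authors, from a gene expression library (11409 barcodes) and its hashtag library, which count the same nuclei. The submitters' processing notes name Cell Ranger 5.0, Seurat 4 and mm10, while Cell Ranger 4.0.0 stands in the matrix header. Filters and HTODemux (quantile 0.8) followed the paper: over 800 and under 5000 genes, up to 12000 counts and 1% mitochondrial counts, and genes in at least 3 nuclei. This left 944 hashtag doublets and 2385 unassigned nuclei out of the comparisons. Each hashtag was clustered in R 4.3.3 with Seurat 5.3.0 (2000 variable genes, 30 components, 20 neighbours, Leiden at 0.55), and sums were made in Python 3.11.15 with scipy 1.17.1. Doublets within 1 hashtag were not removed.

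Of the gene identifiers, 32158 of 32285 were found in GENCODE M21. To be named, a cluster had to pass the first marker of a class and 3 or more markers in all, each at 1.5-fold over the other neurons. A cluster with 4 or more markers of a non-neuronal type stayed unnamed, a rule set after the data were seen. Ratios of CPM have intervals from the exact binomial distribution, for 95% and unadjusted for the number of comparisons. The fold step was tested on simulated data. The members and lists were chosen with earlier results of these data known. Named from the pathway list are genes past 1.5-fold between the hashtags, in AGRP-like or in POMC-like neurons, and by likeness the first 3 genes of a member. One gene of the list is not reported here.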

Additional observations from a re-analysis of the deposited data

Results flagged for a closer look

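The 2385 nuclei that passed the filters but had no hashtag call, which no comparison used, held 3951 UMIs of the 9 genes at a median depth of 3926 UMIs per nucleus. They were looked at because counts of the same genes appear there outside the groups compared.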

How the results depend on the processing

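No paired analysis was possible because the nuclei form 1 pooled sample without replicates. The main comparisons were those between the hashtags, of each named ARC class with the other ARC neurons, and of glutamatergic with GABAergic clusters. For the 25 ratios of the 9 genes past the fold in them, 202 recomputed values all kept their sign, and 12 lay outside the interval first given. Ratios of unnamed or PVH clusters, of AGRP-like with POMC-like neurons, of dopaminergic-like neurons between the hashtags and of the pathway list were not part of this recomputing. The numbers of the 9 genes past the fold changed by more than 1.5 times as follows. Between the hashtags the count was 1 in place of 2 without the AGRP-like and GHRH-like clusters, an alternative chosen after seeing the data, as were leaving out the AGRP-like cluster alone and the ratio within joint clusters. At resolution 1.2, which left 93 dopaminergic-like nuclei, it was 1 in place of 3 for that class, though Igf1r, Irs1 and Irs4 were at 1.35, 1.55 and -1.44 there; 2 of them no longer had 20 UMIs to be had. At a hashtag quantile of 0.99, which left 1229 ARC and 407 PVH nuclei and so fewer UMIs, it was 1 for dopaminergic-like, 1 for VMH-like and 2 for GHRH-like neurons. The log2 ratios of the genes first called in these classes stayed past 1.5-fold at this quantile (Irs1 lowest among the higher ones of dopaminergic-like neurons at 0.80, Igf1r among those of GHRH-like neurons at 0.74, and Foxo1 of VMH-like neurons at -0.93), and the counts fell because fewer genes had 20 UMIs to be had. Irs2 in GHRH-like neurons was within the fold, at 0.57, as a mean of the CPM of each nucleus. At a fold of 2 it was 1 for POMC-like, 1 for VMH-like and 3 for GHRH-like neurons. At resolution 0.3 no cluster was named VMH-like. The share of genes past 1.5-fold between the hashtags ranged from 4.30% to 17.7% over the alternatives. Depth limits the small classes. In the VMH-like cluster Irs1, Irs2 and Foxo3 rested on 22, 28 and 18 UMIs, so a difference of 1.5-fold in them was at the limit of what the counts resolve. Irs4 and Foxo1, called there, rested on fewer still, at 13.6 and 11.8 CPM against 16.3 CPM of Foxo3. The same limit holds for Irs4 in the KNDy-like and dopaminergic-like clusters, at 11.5 and 10.7 CPM.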
